A study of Rattus norvegicus with 6 samples.

Results

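The miR-379/410 cluster is the larger of the miRNA clusters in the imprinted Dlk1-Dio3 region. Its members were taken by name: every rat miRNA on the array whose number, after the species prefix, belongs to one of the cluster's hairpins, whichever arm of the hairpin it comes from. This gave 61 miRNAs from 32 hairpin precursors, beside 697 other miRNAs on the array. Levels were measured on 6 one-colour arrays of terminal hindgut from Sprague Dawley rat fetuses at embryonic day 20. The 3 ARM samples came from fetuses with an anorectal malformation (ARM). Their dams had been given 1% ethylenethiourea (ETU) into the stomach at 125 mg/kg on gestational day 10. ETU inhibits thyroid hormone synthesis and disturbs caudal development in rat embryos. The 3 control samples came from healthy fetuses, whose dams received distilled water in the same way. In each fetus 1 cm of terminal hindgut was taken, so that every sample is mixed tissue. The labels name 4 ETU-treated dams but not the dam or litter of a sample, nor whether a sample is 1 animal, so p-values measure the spread between these samples only. Exposure to ETU and the malformation occur together in the ARM group and cannot be told apart.

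Dlk1-Dio3 is an imprinted region: its protein-coding genes are expressed from the paternally inherited chromosome and its noncoding RNAs from the maternally inherited one. The hairpins of the cluster are cut from long noncoding transcripts that run on from the Meg3 side, so many miRNAs can come from the same primary RNA. From each hairpin, either or both arms (5p and 3p) can become a mature miRNA, which finds its mRNA targets mainly through the seed, bases 2 to 8. In mice the cluster is active in embryo, placenta and brain, and mice that lack it have trouble adapting their metabolism at birth. In rat neurons the transcription factor Mef2 drives it, and Mef2 also acts on the region in mouse muscle.

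All 61 names matched mature miRNAs of RefSeq's rat annotation (GRCr8), and their sequences below are RefSeq's. They lie at chr6:134543460-134579828, a stretch of 36.4 kb, with miR-379-5p first and miR-410-3p last. There are 58 on the plus strand. The other 3, miR-299b-3p, miR-299b-5p and miR-409b, lie on the minus strand opposite the hairpins of miR-299a and miR-409a. The first 25 members lie inside the annotated long noncoding gene LOC102555254 (chr6:134349619-134558975) and the next 36 inside LOC120103623 (chr6:134559128-134586223). Meg3 (chr6:134274056-134306249) and Rtl1 (chr6:134325231-134335780), a paternally expressed gene, lie upstream. The tables used give gene bounds only, so exon or intron is not stated here. A further 12 miRNAs of the array lie in the same 36.4 kb but have other numbers and are not counted as members.

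The 8 members that fell in ARM are shown first, in order along the locus, with the seed in capitals. No seed is shared among these 8.
miR-379-5p: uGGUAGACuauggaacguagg
miR-411-5p: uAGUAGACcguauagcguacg
miR-411-3p: uAUGUAACacgguccacuaa
miR-495: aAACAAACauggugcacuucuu
miR-376b-3p: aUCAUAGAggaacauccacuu
miR-381-3p: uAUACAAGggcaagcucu
miR-369-5p: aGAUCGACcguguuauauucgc
miR-410-3p: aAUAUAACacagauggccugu

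The next 4 include the only tested members with a positive difference, miR-494-3p and miR-409a-3p, neither of which passed. miR-409a-5p is the other arm of the miR-409a hairpin, with a difference of opposite sign that did not pass either. miR-300-3p is close to a member that fell.
miR-494-3p: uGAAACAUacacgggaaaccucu
miR-409a-5p: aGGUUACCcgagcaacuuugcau
miR-409a-3p: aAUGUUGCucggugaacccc
miR-300-3p: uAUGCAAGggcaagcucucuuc

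The 61 members hold 55 different seeds, and 5 seeds are shared by 11 members. miR-381-3p shares AUACAAG with miR-539-3p, miR-299a-5p shares GGUUUAC with miR-299b-5p, and miR-299a-3p shares AUGUGGG with miR-299b-3p. The seed UGGAUAU is common to miR-376c-5p and miR-376b-5p, and GGUUGUC to miR-494-5p, miR-496-5p and miR-410-5p. Of these 11 members only miR-381-3p and miR-299a-5p were detected. Their partners are shown for comparison.
miR-539-3p: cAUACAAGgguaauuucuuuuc
miR-299a-5p: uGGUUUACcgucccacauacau
miR-299b-5p: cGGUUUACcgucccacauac

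Some members are so alike that their probes might pick up each other's miRNA, which was not tested. Positions here count from 1 at the 5′ end. miR-300-3p and miR-381-3p differ at 1 of 18 compared bases (G4A, inside the seed), and miR-376b-3p and miR-376a-3p at 3 of 21 (A4G, C13A and U20G). miR-299a-5p and miR-299b-5p differ at 1 of 20 bases (U1C). On these arrays miR-299a-5p was detected on all 6 arrays and miR-299b-5p on none. miR-543-3p and miR-495 differ at 4 of 21 bases. In mice and humans the transcripts of the miR-376 group are known to be edited by ADAR enzymes, and the arrays do not show whether that happened here.

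The scanner software flags each spot as well above background or not, and a probe with this flag on a share of 0.5 or more of its spots counted as detected on that array. Levels are log2 of the intensity after scaling between arrays, and the dimmest detected probe of each array lay between 3.58 and 4.07 on that scale. A member's level is the mean over its probes, including any not above background. Over the whole array, 211, 209 and 246 miRNAs were detected on ARM replicates 1 to 3 and 235, 241 and 207 on control replicates 1 to 3, and no miRNA spot was saturated. ARM replicate 3 was on another slide than the other 5 arrays. Across the 230 tested miRNAs, control replicate 3 correlated at 0.960 with ARM replicate 1, against 0.941 and 0.948 with the other controls. Those other controls correlated at 0.972 with each other. With ARM replicates 2 and 3, control replicate 3 correlated at 0.915 and 0.944. ARM replicate 1 was likewise closest to control replicate 3, with 0.947 and 0.956 for the other ARM arrays. Results are therefore also given without each array in turn, and within the slide that holds both groups. Among the hindgut's own tissues, markers of epithelium (miR-192, miR-194, miR-215, miR-200), smooth muscle (miR-143, miR-145) and mesenchyme (miR-199a, miR-214) were detected. Of 12 neuronal miRNAs on the array, 6 were detected, with miR-128-3p, miR-137-3p, miR-218a-5p and miR-7a-5p seen on all 6 arrays and miR-124 on none.

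By arm, 9 of the 29 members of 5p arms and 17 of the 32 members of 3p arms or named without an arm were detected on at least 1 array, 26 of 61 in all. Of the 697 miRNAs that are not members, 247 were detected on at least 1 array. The other 35 members were detected on none: 20 from 5p arms and 15 from 3p arms or named without an arm. Of these, 11 sat at the lowest value that the scale allows on all 6 arrays. The highest level among them was 3.01, for miR-668 on ARM replicate 2, below the dimmest detected probe of any array. "Not detected" here means not above this array's background, not absent from the tissue.

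Seen by hairpin, both arms were detected for 3 precursors (miR-411, miR-154 and miR-409a). The 5p arm alone was detected for 6: miR-379, miR-299a, miR-382, miR-134, miR-541 and miR-369. For 14 precursors, from miR-380 to miR-487b and miR-410, only the 3p arm, or the product named without an arm, was detected. No arm was detected for 9: miR-299b, miR-539, miR-544, miR-668, miR-485, miR-496, miR-377, miR-409b and miR-412. miR-485, which represses the synaptic vesicle protein SV2A in rat neurons, was thus below background on both arms, and so was the 5p arm of miR-380, known in mouse and human cells to repress p53.

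**Figure D1:**
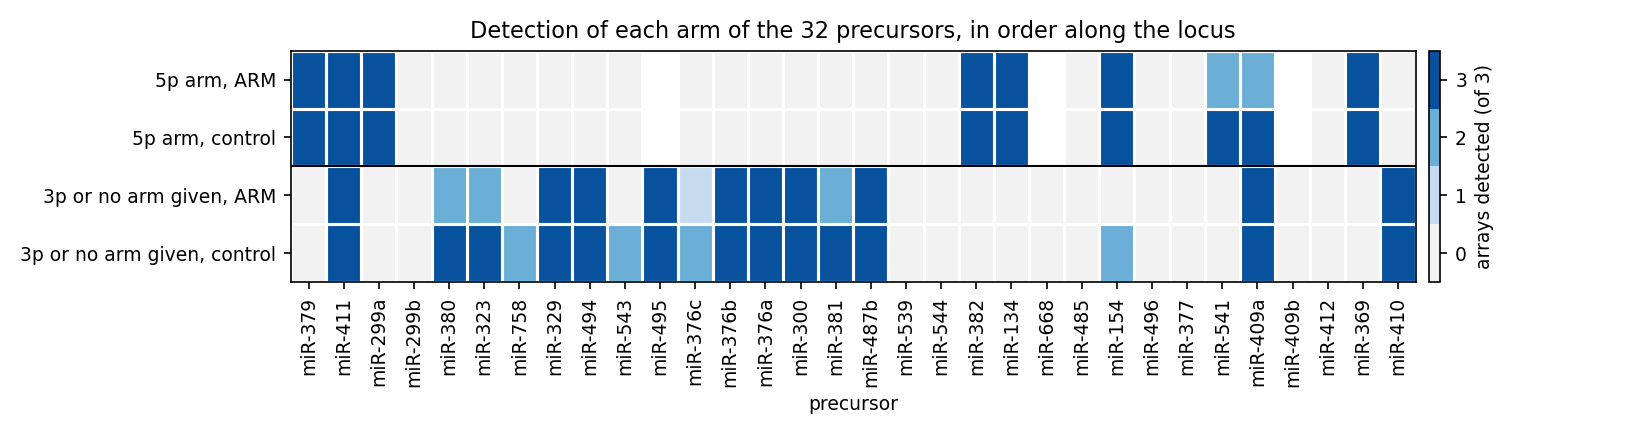
Number of arrays (of 3 in each group) on which each arm was detected, for the 32 precursors in order along the locus; rows are ARM then control, the 5p arm above and the 3p arm, or the product with no arm given, below, and white marks an arm with no member on the array. From miR-380 to miR-487b only the lower rows are filled, both arms are seen for 3 precursors, and 8 of the 9 precursors with no detected arm lie after miR-487b.

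Fewer members were detected on ARM arrays: 22, 17 and 23 on ARM replicates 1 to 3, against 26, 26 and 22 on control replicates 1 to 3. The ranges overlap through control replicate 3, and no test was made on these counts. Detection in controls only was seen for 3 members, each on 2 of the 3 control arrays and on no ARM array, and these were not tested. miR-154-3p had levels of 3.29, 2.91 and 3.60 on the ARM arrays, against 4.50, 4.58 and 4.02 on the control arrays. Its control mean, which includes control replicate 3 where it was not detected, lay 1.45-fold above the mean of the ARM arrays' dimmest detected probes. This is not a strict bound on the fall. On ARM replicate 1 a miR-376c-3p probe at 4.10 was not detected, although the dimmest detected probe was at 3.81. For miR-543-3p (means of 2.34 in ARM and 3.61 in control) and miR-758-3p (3.15 in ARM and 3.45 in control) the control mean did not exceed the mean of those dimmest probes, so no fold is given.

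The test took in miRNAs with a detected probe on 3 or more arrays, counted over both groups together, which admitted 23 of the 61 members and 230 miRNAs in all. Most tested members had lower levels in ARM than in control hindgut. Of the 23 tested members, 8 fell, 15 did not pass and none rose (limma with Benjamini-Hochberg adjustment over all 230 miRNAs, threshold 0.05). Over all tested miRNAs, 11.3% fell and 2.17% rose, against 34.8% of the tested members that fell. At an unadjusted p under 0.05 the count was 18 lower and 0 higher, or 78.3% of the members, where 40.9% of all tested miRNAs passed in either direction and 22.6% were lower. The 8 falls were 1.68-fold to 2.54-fold, with a median of 2.09-fold. In such mixed tissue, fewer cells that make a miRNA and less of it per cell cannot be told apart.

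The differences were negative for 21 of the 23 tested members, against 40.4% of all tested miRNAs. The ARM levels lay wholly below the control levels in 16 of 23, or 69.6%, where 22.6% of all tested miRNAs did so. None of the 23 had ARM wholly above control. The median difference of the 23 was -0.82, while that of all 230 was 0.17. Since members detected only in controls could enter on their controls alone, these counts hold for the members that passed the detection filter and not for all 61. Among the 17 tested members detected on all 6 arrays, 7 fell, 15 differences were negative and the median was also -0.82. In a fit on only the 182 miRNAs detected on all 6 arrays, 8 of these 17 fell. Of all 182 in that fit, 23 fell and 3 rose, with a median difference of 0.166.

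The calls depended on single arrays. Leaving out ARM replicate 1, 2 or 3, or control replicate 1 or 2, left 0 members past the threshold (limma). At an unadjusted limma p under 0.05 there were 17, 13, 19, 14 and 13 members in these fits. The shares of all 230 tested miRNAs were 32.6%, 25.2%, 33.9%, 27.0% and 31.7%. Leaving out control replicate 3 raised the count past the adjusted threshold to 18 members, and to 92 among all 230 miRNAs. The median difference stayed between -1.02 and -0.70 in these 6 fits, and 21 of 23 differences were negative in each. On the slide that holds both groups (ARM replicates 1 and 2 with the 3 controls), no member passed the adjusted threshold. Unadjusted, 19 members passed, or 82.6%, against 33.9% of all tested miRNAs, and the members' median difference was -0.90.

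**Figure D2:**
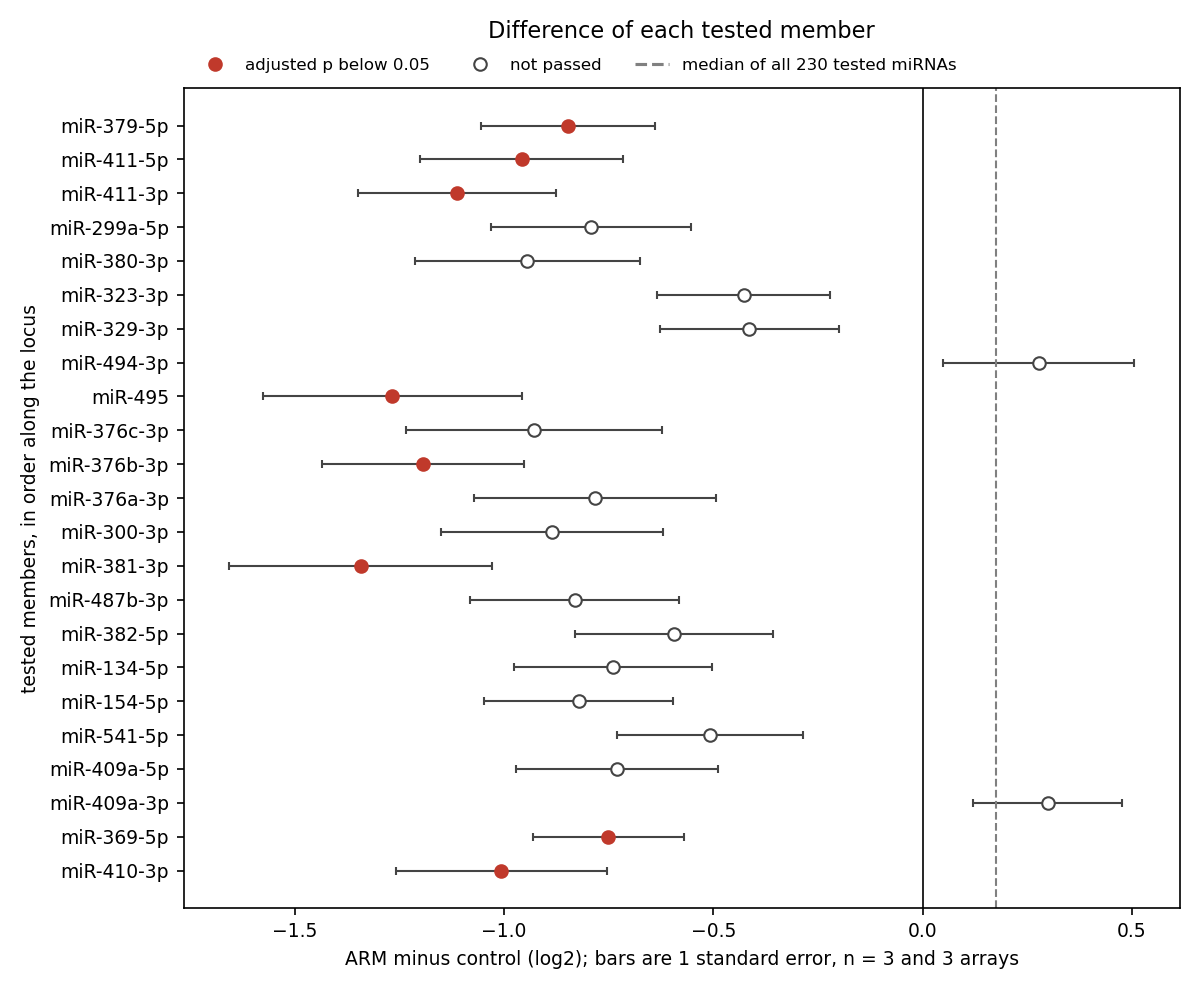
Difference between ARM and control (log2, horizontal axis) for each of the 23 tested members in order along the locus; bars are 1 standard error from 3 ARM and 3 control arrays, filled points passed the test and the dashed line is the median of all 230 tested miRNAs. Only miR-494-3p and miR-409a-3p lie right of 0, and the 8 filled points are spread from miR-379-5p to miR-410-3p.

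At the start of the locus, miR-379-5p, known in mouse kidney mesangial cells to repress the endoplasmic reticulum protein Edem3, had levels of 5.50, 5.21 and 5.52 on ARM arrays 1 to 3, against 6.50, 6.32 and 5.95 on control arrays 1 to 3. The groups do not overlap, although control replicate 3 came close to the ARM arrays. The difference was -0.85 ± 0.21 on the log2 scale (standard error; limma adjusted p = 0.0389), a 1.80-fold fall. Its 3p arm was not detected.

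Both arms of the neighbouring miR-411 hairpin fell. miR-411-5p, which differs from miR-379-5p in its seed, had levels of 4.14, 3.91 and 4.36 in ARM, against 5.33, 5.29 and 4.66 in control. Its difference was -0.96 ± 0.24 (limma adjusted p = 0.0396). miR-411-3p had levels of 5.01, 4.85 and 5.30 in ARM, against 6.41, 6.33 and 5.76 in control. All ARM arrays were again below all controls, and the difference was -1.11 ± 0.24 (limma adjusted p = 0.0385). The log2 gap between the arms (5p minus 3p) was -0.87, -0.94 and -0.94 in ARM, against -1.08, -1.04 and -1.10 in control. The change of the gap between groups was 0.15, and a two-sided exact permutation test gave p = 0.1, the smallest that 3 against 3 arrays allow.

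Further along, miR-495, whose inhibition increased blood vessel growth in ischaemic hind limbs of mice, had levels of 3.90, 3.47 and 3.97 in ARM, against 5.41, 5.34 and 4.40 in control. It fell by 1.27 ± 0.31 on the log2 scale (limma adjusted p = 0.0385). Of its 2 probes, 1 was detected on all 6 arrays and the other on 2 controls only, and both had a difference of -1.27. This was the only fall whose sign depended on the processing: when the probe mean was replaced by the total per miRNA that the scanner software writes (the total gene signal), the difference was 1.33. That total did not equal the sum of the software's own totals for the 2 probes on ARM replicates 1 to 3 and control replicate 3, where it reached 15.0 times the sum, whereas on control replicates 1 and 2 the sums matched within 5%.

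The miR-376 group follows, and its miR-376b-3p is known in human cells to repress the autophagy genes ATG4C and BECN1. miR-376b-3p had levels of 4.39, 4.15 and 4.62 in ARM, against 5.79, 5.80 and 5.16 in control. The gap between the highest ARM array and the lowest control was wider than for miR-379-5p, and the difference was -1.19 ± 0.24 (limma adjusted p = 0.0341). This was the lowest adjusted p among the members. Its near copy miR-376a-3p did not pass, with a difference of -0.78 ± 0.29 (limma adjusted p = 0.0928) and groups that overlap. miR-376c-3p was dim, detected on 1 ARM and 2 control arrays, with levels of 2.72, 1.97 and 2.71 in ARM, against 3.56, 3.74 and 2.89 in control. Its difference of -0.93 ± 0.31 did not pass (limma adjusted p = 0.0706).

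miR-381-3p showed the largest fall of the cluster. Its levels were 4.36, 3.77 and 4.23 in ARM, against 5.80, 5.77 and 4.81 in control, and it was detected on 2 of the 3 ARM arrays and on all controls. Its 2 probes gave differences of -1.29 and -1.40, and their mean was -1.34 ± 0.31 (limma adjusted p = 0.0385). The closely similar miR-300-3p had levels of 5.84, 5.33 and 5.74 in ARM, against 6.80, 6.74 and 6.03 in control. The 2 groups do not overlap, but its difference of -0.88 ± 0.27 did not pass (limma adjusted p = 0.0626). The undetected miR-539-3p, which has the seed of miR-381-3p, gives no comparison.

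At the far end lie miR-369-5p and miR-410-3p, for both of which every probe was detected on all 6 arrays. miR-369-5p had levels of 5.19, 5.11 and 5.21 in ARM, against 6.07, 6.03 and 5.68 in control. Its ARM arrays lay close together, below all controls, and the difference was -0.75 ± 0.18 (limma adjusted p = 0.0385). For miR-410-3p the levels were 6.45, 6.02 and 6.31 in ARM, against 7.59, 7.41 and 6.80 in control. It fell by 1.01 ± 0.25 on the log2 scale (limma adjusted p = 0.0396), a 2.01-fold fall.

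**Figure D3:**
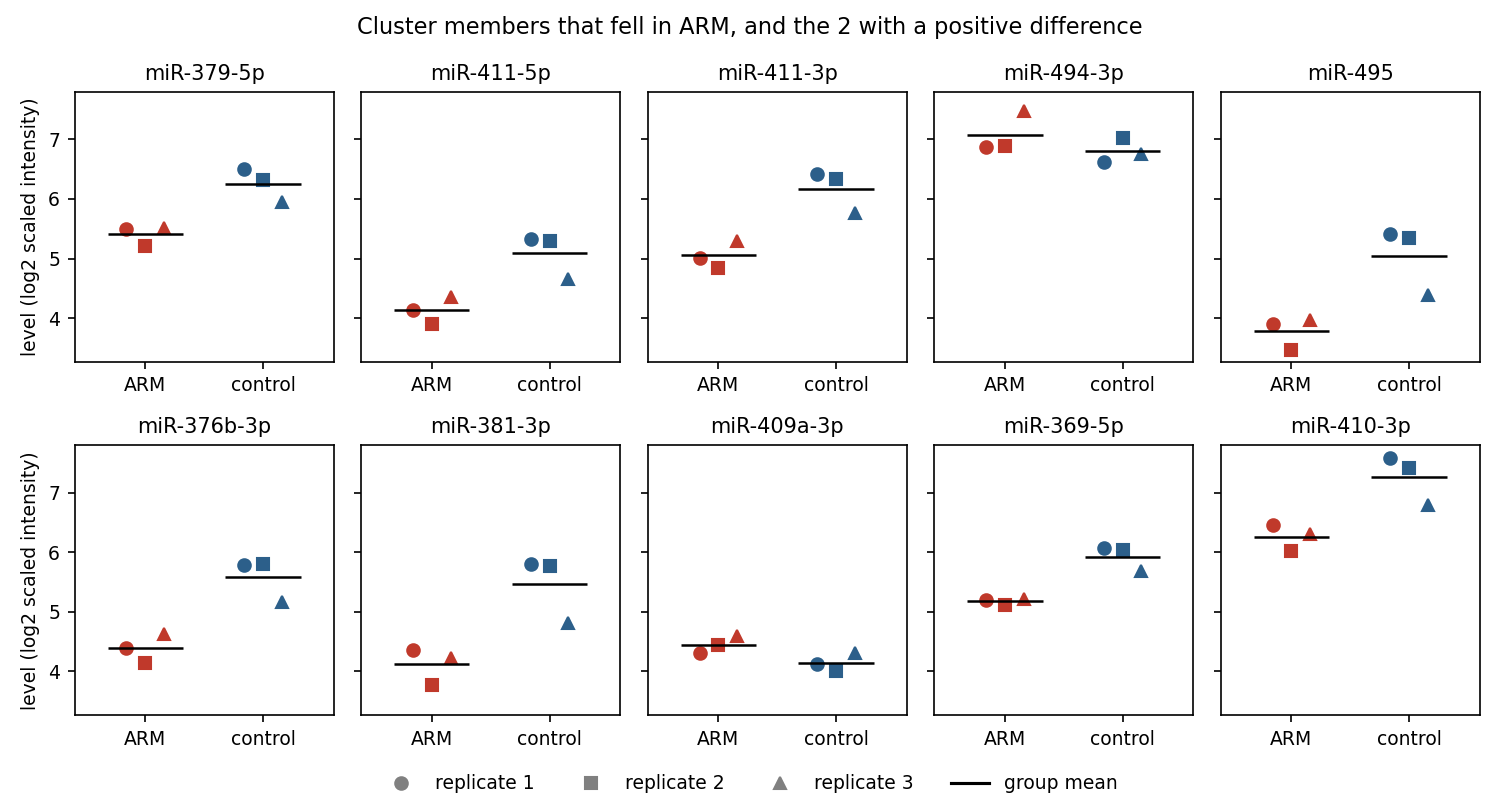
Level on each array (log2 scaled intensity) of the 8 members that fell and of miR-494-3p and miR-409a-3p, in order along the locus, with ARM left of control; symbols mark the replicate number and lines the group mean. In all 8 the ARM arrays lie below the controls, and control replicate 3 (triangle) is the control nearest to them.

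Among the 15 tested members that did not pass, 13 had negative differences, and in 8 of the 15 the groups did not overlap. Their adjusted p-values ran from 0.0528 to 0.356. Beside miR-376c-3p and miR-300-3p, the largest were miR-380-3p, miR-487b-3p, miR-154-5p and miR-299a-5p. miR-380-3p had levels of 4.16, 3.83 and 4.25 in ARM, against 5.35, 5.23 and 4.49 in control, a difference of -0.94 ± 0.27 (limma adjusted p = 0.0585). miR-487b-3p, another of the miRNAs whose inhibition increased vessel growth in mouse limbs, had levels of 5.67, 5.63 and 6.19 in ARM, against 6.99, 6.68 and 6.31 in control. ARM replicate 3 and control replicate 3 nearly met, and the difference was -0.83 ± 0.25 (limma adjusted p = 0.0626).

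miR-154-5p was the nearest to the threshold. It had levels of 5.14, 4.90 and 5.20 in ARM, against 6.15, 6.06 and 5.50 in control, with no overlap and a difference of -0.82 ± 0.22 (limma adjusted p = 0.0528). miR-299a-5p had levels of 4.12, 4.16 and 4.26 in ARM, against 5.29, 5.13 and 4.49 in control. Its ARM arrays were close together and its controls were not, with a difference of -0.79 ± 0.24 (limma adjusted p = 0.0626). Just inside the threshold were miR-411-5p and miR-410-3p, both with adjusted p = 0.0396. The remaining 6 members with negative differences, apart from miR-409a-5p below, were miR-376a-3p, miR-134-5p, miR-382-5p, miR-541-5p, miR-323-3p and miR-329-3p. Their differences ran from -0.78 to -0.41, and their groups were apart only for miR-134-5p. miR-134, which represses the kinase Limk1 in rat hippocampal dendrites, had a difference of -0.74 ± 0.24 on its 5p arm (limma adjusted p = 0.0681).

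The 2 members with a positive difference both came from hairpins within the cluster. miR-494-3p, also among the miRNAs inhibited in the mouse limb experiments, had levels of 6.87, 6.89 and 7.47 in ARM, against 6.63, 7.03 and 6.75 in control. The groups overlap, ARM replicate 3 is the highest array, and the difference of 0.28 ± 0.23 did not pass (limma adjusted p = 0.356). All its probes were detected on all 6 arrays. Its nearest tested neighbours on the locus, miR-329-3p before it and miR-495 after it, had negative differences. Without scaling between arrays, its difference was -0.036.

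miR-409a-3p differed in direction from its own hairpin's 5p arm. The 3p arm had levels of 4.30, 4.44 and 4.59 in ARM, against 4.12, 4.01 and 4.31 in control, a difference of 0.30 ± 0.18 that did not pass (limma adjusted p = 0.217). The 5p arm had levels of 4.05, 3.68 and 4.14 in ARM, against 5.01, 4.75 and 4.30 in control, a difference of -0.73 ± 0.24 that did not pass either (limma adjusted p = 0.0706). The gap between the arms (5p minus 3p) was -0.26, -0.76 and -0.45 in ARM, against 0.89, 0.74 and -0.01 in control. All ARM arrays were below all controls in this gap, by 1.03 on average. The two-sided exact permutation test gave p = 0.1, the smallest possible, and 0.1 after adjustment over the 2 hairpins tested this way.

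The 3 probes of miR-409a-3p did not move alike. The brightest, the only one detected on all 6 arrays, had a difference of -0.078, and the other 2 had 0.35 and 0.63. The probe with the difference of 0.63 was detected on 2 ARM arrays and no control array. miR-409b, encoded on the opposite strand of this hairpin, was not detected.

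Across the 21 members with negative differences, the same arrays were at the edges. Control replicate 3 was the lowest control in 21 of 21, and ARM replicate 2 was the lowest ARM array in 19. Control replicate 1 was the highest control in 17. Averaged over the 23 tested members, the level was 4.64, 4.39 and 4.79 on ARM replicates 1 to 3, against 5.58, 5.51 and 4.98 on control replicates 1 to 3. The summed scaled intensity of all 61 members, detected or not, ran from 708 to 927 in ARM and from 994 to 1484 in control.

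Along the locus, the 11 tested members inside LOC102555254 had a median difference of -0.93, with 5 falls, and the 12 inside LOC120103623 had a median of -0.77, with 3 falls. No test was made between the 2 stretches. Over the 23 members, the correlation of the difference with distance from miR-379-5p was 0.15 (Pearson; Spearman 0.25). With GC content of the mature miRNA it was 0.43 (Spearman 0.52), and with the mean control level -0.17 (Spearman -0.37). These are descriptions over members that share the same 6 arrays and partly the same primary transcripts. The median GC content was 42.2% for the 8 that fell, 45.5% for the 23 tested and 47.6% for the 35 not detected.

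By arm, 3 of the 9 tested members from 5p arms fell, with a median difference of -0.75, and so did 5 of the 14 from 3p arms or named without an arm, with a median of -0.91. Both shares lie above the 11.3% of all tested miRNAs that fell. The Dlk1-Dio3 miRNAs with other numbers, some of which lie among the members, numbered 31 on the array, of which 15 were detected and 10 tested. Of these 10, 2 fell, 8 did not pass and none rose, and the median difference was -0.59. The 2 falls are 20% of them, against 11.3% of all tested miRNAs. Negative differences were found in 8 of the 10. In 5, or 50%, ARM lay wholly below control, against 22.6% of all tested miRNAs. At an unadjusted limma p under 0.05, 60% passed, against 40.9%. Lower levels were thus not particular to the members. The 2 that fell were miR-431 (-1.45, limma adjusted p = 0.0385) and miR-434-3p (-0.99, limma adjusted p = 0.0385), which are processed from the transcript antisense to Rtl1. In the same antisense group, miR-127-3p had a difference of -1.04 that did not pass (limma adjusted p = 0.0511). Of the 12 miRNAs that lie within the 36.4 kb of the cluster without being members, miR-667-3p alone was tested. Its levels were 3.73, 4.78 and 4.84 in ARM, against 3.74, 3.75 and 4.14 in control, with overlapping groups and a positive difference of 0.57 ± 0.32 that did not pass (limma adjusted p = 0.202).

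Tested markers of striated muscle, liver and erythroid cells were also lower in ARM, and those of other tissues were not called. Sums here are over all miRNAs of a list on the array, detected or not. Of the 15 striated muscle miRNAs on the array 5 were tested and 4 fell, with summed scaled intensities of 135 to 295 in ARM and 826 to 3521 in control, while miR-208a, miR-208b and miR-499 were not detected. The liver marker miR-122-5p, the 1 tested of 2, fell, with a mean level of 2.66 in ARM and 7.10 in control (log2), and its list summed to at most 22.7 in ARM and at least 108 in control. Both tested erythroid miRNAs of 5 on the array fell, with sums of 74.8 to 114 in ARM and 213 to 380 in control. In muscle, liver and erythroid sums, as in the cluster, control replicate 3 was the lowest control, though for liver it was close to control replicate 1 (108 against 114). None of the 10 tested intestinal epithelial miRNAs of 16 passed, with sums of 1684 to 2685 in ARM and 524 to 1496 in control. All 10 differences were positive, with a median of 1.01. In 7 of the 10, ARM lay wholly above control, where 26.1% of all tested miRNAs did so. At an unadjusted limma p under 0.05, 9 passed, or 90%, against 40.9% of all tested miRNAs in either direction. Mesenchymal sums were 2342 to 2865 in ARM and 2851 to 3717 in control. Neuronal sums were 125.8 to 167.6 in ARM and 140.9 to 146.4 in control. No call was made among their 3 and 4 tested members, although miR-128-3p had a difference of -1.39 and miR-137-3p of 0.82. Median differences were 0.56 for smooth muscle, 0.51 for stratified epithelium, -0.11 for leukocytes and -0.037 for endothelium, also with no call. The part of these tissues in the cluster's differences was not tested.

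The background correction and the scaling also moved the calls. With normexp, a model-based correction of raw spot and background intensities with an offset of 50, 1 of the 23 members passed, 17 differences stayed negative and the median was -0.13, against 0.19 for all tested miRNAs. Of all 230 tested miRNAs, 16 passed in this setting. At an unadjusted limma p under 0.05, 43.5% of the members passed, against 46.5% of all tested miRNAs, so the members' share was not the higher one. Without scaling between arrays, 6 members passed, and all 23 differences were negative, with a median of -1.13. Of all 230 tested miRNAs, 30 were called lower and 1 higher without scaling. That setting moved the median of all tested miRNAs to -0.13, against 0.17 with scaling, and relative to it the members' median was -1.002, against -0.997 with scaling.

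**Figure D4:**
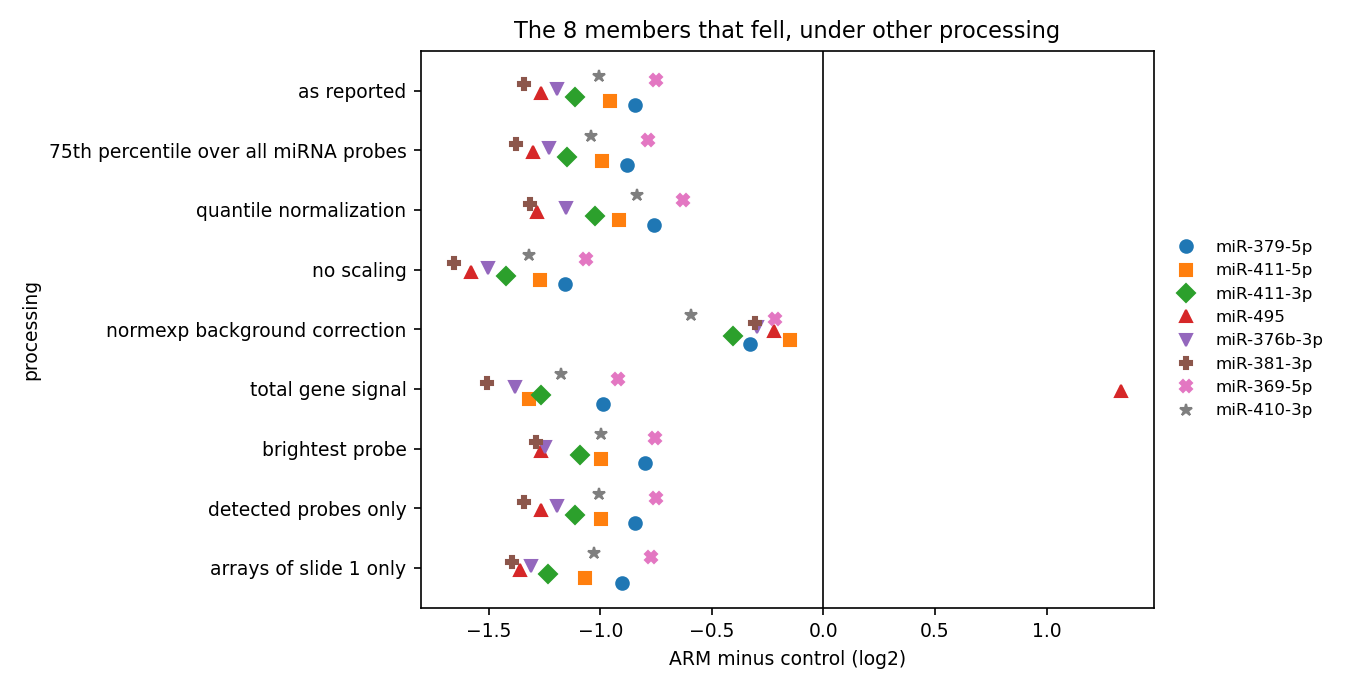
Difference between ARM and control (log2, horizontal axis) of the 8 members that fell, as reported (top row) and under 8 other ways of processing the same arrays; each symbol is 1 member. The symbols lie left of 0 in every row apart from miR-495 with the total gene signal, at 1.33, and are nearest to 0 with the normexp background correction.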

How the data were processed

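The intensity of each spot was deposited by the authors as processed by Agilent Feature Extraction 10.7.1.1 (per the file headers), which subtracted background and spatial trend and applied no scaling between arrays. The deposited value table held the same intensities (largest difference 0). It is therefore linear, not centred and not scaled, and its column medians were 2.10, 2.61 and 2.84 on the ARM arrays and 2.44, 3.16 and 1.84 on the control arrays. Groups and replicate numbers come from the sample titles. RNA (0.2 ug) was labelled with Cy3, per the labels' protocols.

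An array has 12843 features, with 12128 spots for 1806 miRNA probes. The share of those spots above background was 22.3% to 26.3%, and precision is limited by the number of arrays. Control spots and outlier spots were left out and spots were averaged per probe. Arrays were scaled by the 75th percentile of the 300 probes that all 6 arrays detected, floored at 1, converted to log2 and averaged per miRNA. Differences are ARM minus control, fitted with limma 3.58.1 (lmFit, eBayes) in R 4.3.3 on all 230 tested miRNAs, adjusted by Benjamini-Hochberg (threshold 0.05). Names are those of the array without the rat prefix. In simulated data with the spread of these miRNAs (40 of 230 changed, 100 runs) the fit recovered 67.4% of 2-fold and 93.7% of 4-fold changes, with 4.62% false calls. The simulated noise was independent between miRNAs, whereas miRNAs on the real arrays varied together. These rates therefore do not carry over to the calls made here.

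The members, the marker lists and the tests were chosen with earlier results of these data known. Values on every array are given for members past the threshold, the 6 largest differences that did not pass, positive differences and hairpins with both arms tested. Members detected in 1 group only are set against the dimmest detected probes, and others are counted. The alternatives were other scalings, normexp, other probe summaries, detection filters, floor, slide, replicate block and leaving out each array. No set test was run.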

Additional observations from a re-analysis of the deposited data

How the results depend on the processing

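Counts are given for all miRNAs, then for members. The 21 of 23 negative member differences were also found with scaling over all probes, by quantiles, with no detection filter, with a floor of 10, with slide or replicate block, and in each fit without 1 array. The numbers of calls were 36 and 10 with all probes, 38 and 10 with quantile scaling, 31 and 6 without scaling or with the value table, 28 and 9 with the total gene signal, 45 and 12 with the brightest probe, 39 and 11 with detected probes only, 26 and 8 with detection on all 6 arrays, and 38 and 9 with a floor of 10. Higher and lower calls numbered 5 and 26 as reported, 10 and 28 with quantile scaling, 1 and 30 without scaling, and 11 and 27 with a floor of 10. The median member difference was -1.13 without scaling and with the value table. With normexp, 16 miRNAs and 1 member passed and the median was -0.13. With no detection filter, 0 passed (limma; unadjusted, 17.7% of all miRNAs and 18 members) and the median over all 61 members was -0.11, since every miRNA on the array was tested. With slide as a block, which equals the fit on the slide with both groups, 0 miRNAs and 0 members passed (78 and 19 unadjusted, lowest adjusted p 0.0607). With the replicate block 0 and 0 passed (73 and 15 unadjusted). Same-numbered arrays had deviations that correlated at -0.07, -0.28 and -0.21. With only 3 arrays in a group, these values cannot tell whether the numbers pair the samples. Leaving out 1 array gave 0 to 92 miRNAs and 0 to 18 members, with medians of -1.02 to -0.70. The 92 and 18 came without control replicate 3; without ARM replicates 1 and 2, 10 and 6 miRNAs passed, and 0 in the other 3 fits. Signs turned without scaling and with the value table for miR-494-3p (-0.036) and miR-409a-3p (-0.014), and with the brightest probe for miR-409a-3p (-0.078). With normexp they turned for miR-323-3p (0.084), miR-329-3p (0.043), miR-376c-3p (0.079) and miR-541-5p (0.051). With the total gene signal they turned for miR-323-3p (0.53), miR-495 (1.33) and miR-541-5p (0.39), 3 of the 8 tested members whose total differed from the sum over probes by more than 5% on at least 1 array. The cause of the changed calls and signs was not tested. Levels of members not above background on an array are uncertain there.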
